A study of Mus musculus with 3 samples.

Results

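Epithelial cells of the mouse nasal mucosa that carry the basal keratin gene Krt5 together with Pthlh, Lgr6, Krt17 and Upk1b were examined in 3 single-cell RNA libraries. A cell barcode was a member when it held at least 500 UMIs (unique molecular identifiers, each counting 1 captured RNA molecule), at least 200 genes and at most 20% mitochondrial UMIs. It also had at least 3 UMIs of Krt5, at most 2 of Krtdap (a gene of cornifying cells), at most 4 of Omp (a gene of mature olfactory neurons) and 0 of Ptprc (a leukocyte gene). Within that gate the detected genes of 3 sets of 4 genes were counted, and a member had more genes detected of Pthlh, Lgr6, Krt17 and Upk1b than of either other set, with ties left out. The other sets were Krt15, Serpinb5, Gdpd2 and Tns4, whose cells are called Krt15 cells here, and Nrcam, Abca4, Igfbp2 and Col23a1, whose cells are called Nrcam cells. The rule found 763 members among 32376 cells that passed the quality limits: 313 of 12149 in papain with lonidamine, 317 of 10712 in papain and 133 of 9515 in PBS.

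Basal cells sit on the basement membrane of a stratified or pseudostratified epithelium, are held there by hemidesmosomes, and renew the layers above them. Pthlh encodes parathyroid hormone-related protein, a secreted signal that acts through the receptor Pth1r, often on neighbouring stromal cells. Lgr6 encodes a receptor of R-spondins that strengthens Wnt signalling and marks progenitors in the hair follicle and some other epithelia, Krt17 is a keratin of skin appendages and wounded epithelium, and Upk1b encodes a uroplakin, a membrane protein best known from the urothelium.

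The mice were C57BL/6J animals, as many males as females in each group. Mice of the group called papain with lonidamine received 20 µg of papain into the nose, a cysteine protease that sets off allergic airway inflammation, and lonidamine at 10 mg/kg into the stomach. Mice of the papain group had the same nasal dose with PBS into the stomach, and mice of the PBS group had PBS into the nose. Lonidamine inhibits hexokinase, the carriers of lactate and pyruvate, and mitochondrial complex II, and the study asked what it does in a model of eosinophilic chronic rhinosinusitis. All mice of a group were pooled into 1 library, and the labels do not say how many mice that was. Each group therefore had 1 library, no difference between groups had a replicate check, and every interval below covers counting error only. The papain library carries the library name Fibroblast against its own title and treatment label. It was used as the treatment label gives it, and fibroblast markers over all kept cells summed to 1202 CPM in papain with lonidamine, 756 CPM in papain and 418 CPM in PBS.

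Members held a median of 7735 UMIs in papain with lonidamine, 8240 UMIs in papain and 10779 UMIs in PBS. The share of 18S ribosomal RNA in their summed UMIs was 3.13% in papain with lonidamine, 3.31% in papain and 0.905% in PBS. Sexed by Xist and Y-linked genes, papain with lonidamine had 283 female, 10 male and 20 unassigned members, papain had 156 female, 90 male and 71 unassigned, and PBS had 67 female, 42 male and 24 unassigned. Of the members with a sex call, 96.6% were female in papain with lonidamine, 63.4% in papain and 61.5% in PBS. Scrublet, a doublet caller, marked 4 members in papain with lonidamine, 3 in papain and 5 in PBS. Each pair of libraries shared between 22 and 36 barcodes among all kept cells and 0 among the members. Levels are given as CPM, the UMIs of a gene over all UMIs in the summed members of a library, scaled as usual for that unit. They do not compare genes per length. A log2 ratio compares 2 such sums, with 0.5 counts added to each and its 95% counting interval in brackets. A gene was compared where the 2 sums held at least 50 UMIs of it, and is said to have risen or fallen only where it differed at least 2-fold.

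The rule genes describe the cells and test nothing. The share of members with a UMI of Krt17 was 98.7% in papain with lonidamine, 98.7% in papain and 98.5% in PBS. Nrcam cells had it as widely, with shares of 99.1% in papain with lonidamine, 98.9% in papain and 99.3% in PBS. The share of members with Lgr6 was 70.6% in papain with lonidamine, 69.1% in papain and 80.5% in PBS. Among Nrcam cells it was 1.75% in papain with lonidamine, 1.12% in papain and 0.930% in PBS. Among Krt15 cells it was 20.4% in papain with lonidamine, 14.4% in papain and 27.5% in PBS. The share of members with Pthlh was 58.1% in papain with lonidamine, 56.2% in papain and 72.2% in PBS. The share of members with Upk1b was 64.2% in papain with lonidamine, 66.6% in papain and 75.2% in PBS. Nrcam cells had Upk1b too, in 33.2% of them in papain with lonidamine, 35.3% in papain and 46.7% in PBS. Pthlh stood at 289 CPM in papain with lonidamine, 198 CPM in papain and 382 CPM in PBS, so its level was lowest in papain. Krt17 stood at 1624 CPM in papain with lonidamine, 2089 CPM in papain and 1296 CPM in PBS, highest in papain. All 4 genes were seen together in 79 members of papain with lonidamine, 77 of papain and 52 of PBS.

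Cells just inside and just outside the Krt5 limit were compared as a description only. Both kinds of cell had the members' gene set highest, so their Lgr6 was in part set by that choice. In papain with lonidamine, 18 members with exactly 3 UMIs of Krt5 had Lgr6 at 142 CPM and Bpifa1, a secreted defence protein that the rule did not use, at 14215 CPM. The 25 cells left out there for having 2 UMIs had Lgr6 at 147 CPM and Bpifa1 at 29908 CPM. In papain, 25 such members had Lgr6 at 106 CPM and Bpifa1 at 8491 CPM, and 32 such cells left out had 125 CPM and 26925 CPM. In PBS, 13 such members had Lgr6 at 121 CPM and Bpifa1 at 1184 CPM, and 16 such cells left out had 87.5 CPM and 24543 CPM. Bpifa1 was thus higher just outside the limit in each library. A tie of the members' set with another kept out 363 cells in papain with lonidamine, 320 in papain and 119 in PBS, with Bpifa1 at 2305 CPM in papain with lonidamine, 7081 CPM in papain and 565 CPM in PBS.

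The basal label was checked against genes that the rule did not use. The 16 other basal genes summed to 5266 CPM in papain with lonidamine, 4998 CPM in papain and 3315 CPM in PBS, against 1585 CPM in papain with lonidamine, 1605 CPM in papain and 807 CPM in PBS over all kept cells, and 0 of the 16 lacked a UMI in any library. Trp63, the transcription factor that maintains basal epithelium, was at 183 CPM in papain with lonidamine, 155 CPM in papain and 129 CPM in PBS. That is near its level in Krt15 cells, 211 CPM in papain with lonidamine, 152 CPM in papain and 141 CPM in PBS, and below its level in Nrcam cells, 501 CPM in papain with lonidamine, 390.1 CPM in papain and 424 CPM in PBS. Krt14, the partner keratin of Krt5, was at 948 CPM in papain with lonidamine, 1091 CPM in papain and 429 CPM in PBS. Hillock and transitional keratin markers, 11 genes that include Krt8, Krt18 and Krt19, summed to 4019.6 CPM in papain with lonidamine, 5079 CPM in papain and 4577 CPM in PBS in members, above the basal sum in papain and PBS, and to 2489 CPM in papain with lonidamine, 2989 CPM in papain and 2065 CPM in PBS over all kept cells.

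Markers of the other cell types that the gate could hold ranged from nearly absent to abundant. Lymphoid markers summed to 1.46 CPM in papain with lonidamine, 1.29 CPM in papain and 3.49 CPM in PBS, with 5, 5 and 4 of the 8 genes at 0 UMIs in these libraries, and squamous markers summed to 34.9 CPM in papain with lonidamine, 35.3 CPM in papain and 33.8 CPM in PBS. Olfactory neuron markers summed to 129 CPM in papain with lonidamine, 145 CPM in papain and 581 CPM in PBS, against 4579 CPM in papain with lonidamine, 4670.1 CPM in papain and 18238 CPM in PBS over all kept cells. Secretory and goblet markers, which include Bpifa1, summed to 9897 CPM in papain with lonidamine, 9115 CPM in papain and 3401 CPM in PBS, against 9701 CPM in papain with lonidamine, 12388 CPM in papain and 6229 CPM in PBS over all kept cells. Members with at least 5 UMIs of markers of another class, a count that leaves Bpifa1 out, numbered 23 (7.35%) in papain with lonidamine, 24 (7.57%) in papain and 16 (12%) in PBS.

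The cells were a larger share of the kept cells in both papain libraries than in PBS. They were 2.58% (2.30 to 2.87) of kept cells in papain with lonidamine, 2.96% (2.65 to 3.30) in papain and 1.40% (1.17 to 1.65) in PBS, with exact Clopper-Pearson 95% intervals. The intervals of the papain libraries overlap each other, and neither reaches that of PBS. Among the Krt5 cells that could be placed in 1 of the 3 sets, members were 21.2% (19.2 to 23.4) in papain with lonidamine, 23.3% (21.1 to 25.6) in papain and 18.6% (15.8 to 21.6) in PBS, and on that denominator the intervals of all 3 libraries overlap. Krt15 cells were 55.5% of the placed cells in papain with lonidamine, 50.4% in papain and 21.4% in PBS, and Nrcam cells were 23.3% in papain with lonidamine, 26.3% in papain and 60.1% in PBS. Mature olfactory neurons numbered 1453 in papain with lonidamine, 1291 in papain and 2676 in PBS, and their part in the share of kept cells was not tested.

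**Figure D1:**
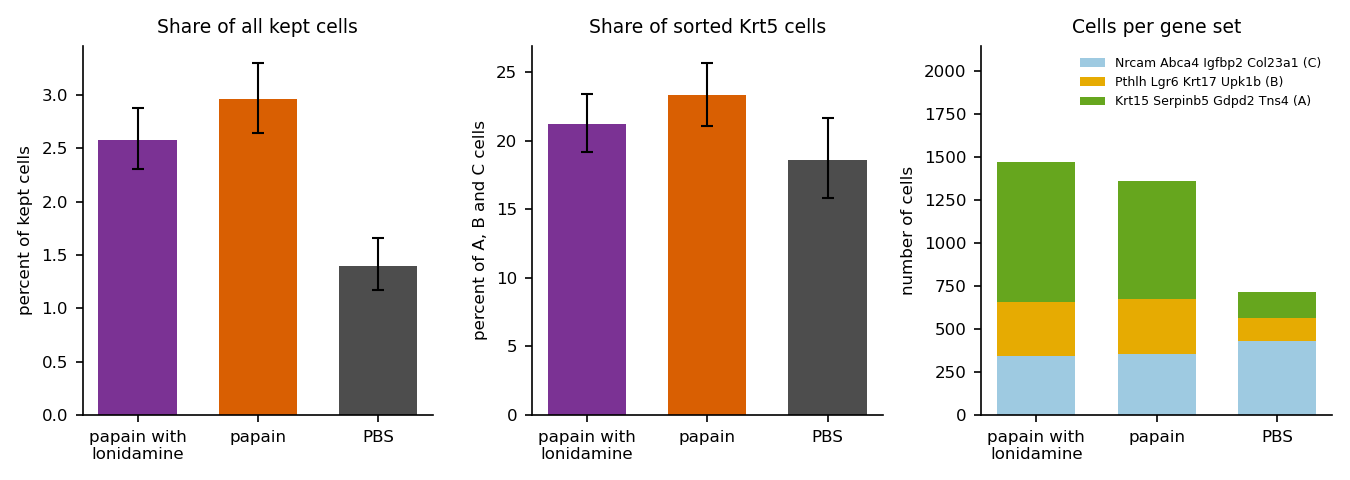
Members as a percent of all kept cells (left) and of the Krt5 cells placed in a set (middle), with exact 95% counting intervals as error bars, and the number of cells in each set (right; A the Krt15 cells, B the members, C the Nrcam cells). Members were 2.58% and 2.96% of kept cells in the papain libraries against 1.40% in PBS, while their part of the placed cells lay between 18.6% and 23.3%.

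Set against Krt15 and Nrcam cells of the same library, members carried secretory and luminal genes beside the basal ones. Since the cells were sorted by their RNA, these ratios describe them and test nothing. Of 7526 genes that could be compared in every library, 15 were at least 2-fold higher in members than in both other classes in all 3 libraries. Ass1, which encodes the arginine-synthesis enzyme argininosuccinate synthase, was the 1 gene that was at least 2-fold lower throughout, while 541 were lower in all 6 ratios by any amount. Sult1d1, a cytosolic sulfotransferase, led the list at 894 CPM in papain with lonidamine, 1061 CPM in papain and 1444 CPM in PBS. Krt15 cells had 95.8 CPM in papain with lonidamine, 107 CPM in papain and 104 CPM in PBS, and Nrcam cells had 49.7 CPM in papain with lonidamine, 68.1 CPM in papain and 49.4 CPM in PBS. Mature olfactory neurons held it too, at 1541 CPM in papain with lonidamine, 1444 CPM in papain and 1219.8 CPM in PBS, so Sult1d1 is not confined to members. Bpifa1, a secreted surfactant-like defence protein of the upper airway, was at 9289.5 CPM in papain with lonidamine, 8879 CPM in papain and 3332 CPM in PBS. Tff2, a trefoil peptide secreted with mucus, was at 464 CPM in papain with lonidamine, 249 CPM in papain and 48.9 CPM in PBS. Muc16, a membrane mucin of moist epithelia, was at 154 CPM in papain with lonidamine, 113 CPM in papain and 55.3 CPM in PBS. Both of these were therefore highest in papain with lonidamine and lowest in PBS.

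The other genes named as higher throughout were Kif19a, Bace2, Trf (transferrin), Csf3 (the granulocyte growth factor G-CSF), Cd55 (a complement inhibitor), Cd36 (a lipid scavenger receptor), Fn1 (fibronectin) and Wdr72. The smallest of the 6 log2 ratios was 1.10 for Wdr72, against 3.22 for Sult1d1. Keratins of simple epithelium were abundant, with Krt18 at 1259.5 CPM in papain with lonidamine, 1534 CPM in papain and 1842 CPM in PBS. The 11 hillock and transitional keratin markers, Krt18 among them, had sums in Krt15 cells near those in members. They were 3491 CPM in papain with lonidamine, 5159 CPM in papain and 4312 CPM in PBS. In Nrcam cells the sums were 2158 CPM in papain with lonidamine, 2456 CPM in papain and 2890 CPM in PBS. Wfdc2, a secreted protease inhibitor of airway epithelium, was at 3223 CPM in papain with lonidamine, 2887 CPM in papain and 3273 CPM in PBS. Krt15 cells had Wfdc2 at a like level, 2653 CPM in papain with lonidamine, 2962 CPM in papain and 2447 CPM in PBS, and Nrcam cells had less, 768 CPM in papain with lonidamine, 692 CPM in papain and 562 CPM in PBS. Dlk2, Dsc3 (a desmosomal cadherin), Ptpre and Tenm2 were lower in members than in both classes in each library, though not by 2-fold in each ratio.

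**Figure D2:**
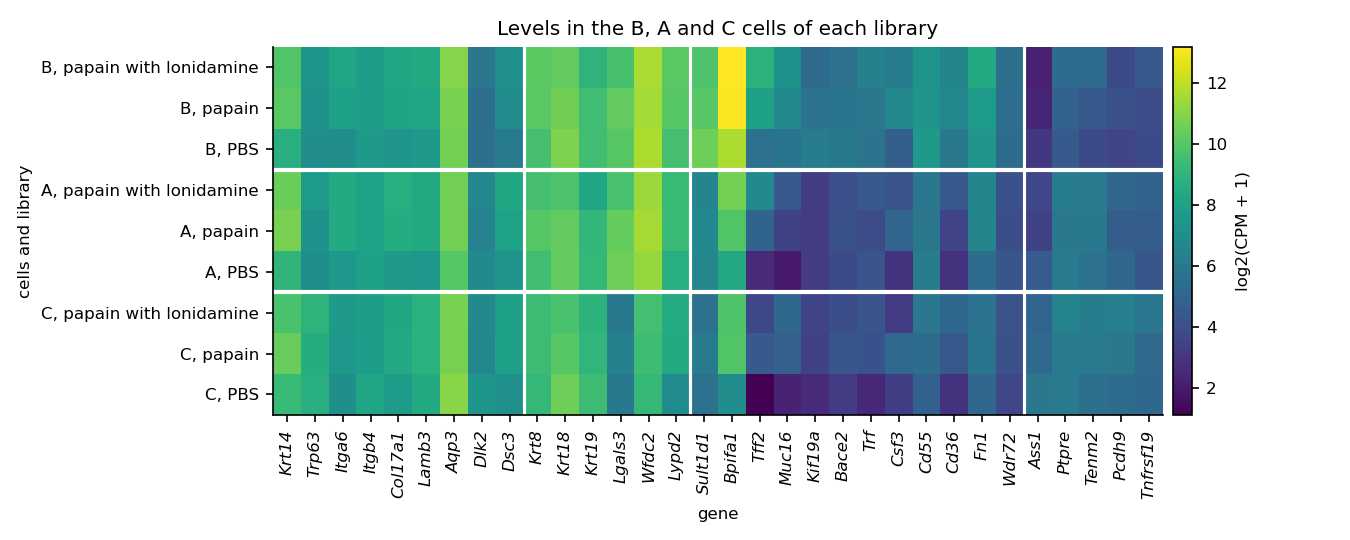
Levels, as log2(CPM + 1), in the members (B), the Krt15 cells (A) and the Nrcam cells (C) of each library for basal genes, simple-epithelium and luminal genes, and genes highest or lowest in members. Sult1d1 stands at 894 to 1444 CPM in members and at no more than 107 CPM in both other classes.

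The members were not uniform, and Bpifa1 varied most plainly among them. Per 10000 UMIs of a cell, the median was 2.80 in papain with lonidamine, 4.35 in papain and 1.74 in PBS, while the highest 10% of cells had at least 219 in papain with lonidamine, 275 in papain and 97.3 in PBS. Members with at least 20 Bpifa1 UMIs per 10000, a line drawn after the values were seen, numbered 80 (25.6%) in papain with lonidamine, 114 (36.0%) in papain and 24 (18%) in PBS. Scrublet marked 0 of them in each library. Trp63 was detected in 68.8% of them in papain with lonidamine, 57.9% in papain and 50% in PBS, against 67.0%, 69.0% and 77.1% of the other members. Tff2 stood in them at 1297 CPM in papain with lonidamine, 521 CPM in papain and 136 CPM in PBS, against 137 CPM in papain with lonidamine, 99.3 CPM in papain and 26.4 CPM in PBS in the others. Muc5b, a gel-forming mucin, stood in them at 752 CPM in papain with lonidamine, 95.8 CPM in papain and 11.3 CPM in PBS, against 24.3 CPM in papain with lonidamine, 19.1 CPM in papain and 7.33 CPM in PBS in the others. Agr2, a mucin-folding protein of goblet cells, stood in them at 632 CPM in papain with lonidamine, 252 CPM in papain and 102 CPM in PBS, against 64.9 CPM in papain with lonidamine, 105 CPM in papain and 45.4 CPM in PBS in the others. Each of the 3 genes was higher in the summed Bpifa1-rich members of each library, and whether single cells hold them together was not tested. Few members held much Muc5b. Over Muc5b, Muc5ac, Fcgbp and Scgb3a1 together, 5 members of papain with lonidamine, 7 of papain and 0 of PBS had at least 5 UMIs.

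Members with more of the 4 rule genes were deeper and had more Sult1d1, which the rule did not use. With all 4 genes seen, Sult1d1 was at 1223 CPM in papain with lonidamine, 1267 CPM in papain and 1749 CPM in PBS. With 1 or 2 of the genes seen it was at 555 CPM in papain with lonidamine, 779.9 CPM in papain and 702 CPM in PBS. Their median depths were 10152 UMIs in papain with lonidamine, 10455 UMIs in papain and 13208 UMIs in PBS with all 4 genes, and 5721 UMIs in papain with lonidamine, 7095 UMIs in papain and 7535 UMIs in PBS with 1 or 2, and the part of depth was not tested. Dividing cells, with at least 3 UMIs over 6 cycle genes, were few: 10 members (3.19%) in papain with lonidamine, 14 (4.42%) in papain and 3 (2.26%) in PBS, whose exact 95% intervals overlap.

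Members of the papain and PBS libraries differed widely in what they expressed. Of 8539 genes compared between papain and PBS members, 800 (9.37%) differed at least 2-fold, 397 (4.65%) higher and 403 (4.72%) lower in papain, with a median log2 ratio of -0.13 over all compared genes. With median-of-ratios scaling, which sets that median to 0, 512 were higher and 258 lower, so higher genes were 66.5% of the calls and not 49.6%. The 18S share was 3.31% in papain and 0.905% in PBS, and the median depth 8240 UMIs in papain and 10779 UMIs in PBS. Marker sums of other cell types differed along with the groups. Sustentacular markers (6 genes, 0 of them at 0 UMIs in any library) summed to 1812 CPM in papain with lonidamine, 1463 CPM in papain and 750.1 CPM in PBS. Serous gland markers (7 genes, 5 at 0 in each library) summed to 674 CPM in papain with lonidamine, 1900.3 CPM in papain and 109 CPM in PBS, fibroblast markers (7 genes, 1 at 0 in each) to 258 CPM in papain with lonidamine, 473 CPM in papain and 257 CPM in PBS, and myeloid markers (8 genes, 0 at 0) to 161 CPM in papain with lonidamine, 277 CPM in papain and 76.8 CPM in PBS. The part of depth, 18S RNA and these markers in the gene results was not tested. Leaving out the members with 5 or more UMIs of another class kept both counts within 1.5 times of those given. That exclusion used other, shorter gene lists. Its serous and duct genes (Klk1, Fxyd2 and Bpifb3) summed to 8.74 CPM in papain members and marked 0 of 317, so it cannot bear on the serous gland sum.

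Keratins and envelope genes of stressed epithelium rose in papain. In the list of stress keratins and cornified-envelope genes, 5 of 14 could be compared, 4 rose and 0 fell, and the median log2 ratio was 3.17. Among all compared genes 4.65% rose and 4.72% fell. Krt16, the keratin of wounded and hyperproliferative epidermis, was at 74.6 CPM in papain with lonidamine, 118 CPM in papain and 2.91 CPM in PBS. Its log2 ratio of papain to PBS was 5.21 [4.11 to 6.97], on 52 members in papain and 4 in PBS with a UMI. Krt6a, its partner, was at 71.7 CPM in papain with lonidamine, 123 CPM in papain and 13.4 CPM in PBS, a log2 ratio of 3.17 [2.59 to 3.87]. Tgm1, the transglutaminase that cross-links the envelope, was at 24.0 CPM in papain with lonidamine, 35.6 CPM in papain and 3.49 CPM in PBS, with a log2 ratio of 3.24 [2.18 to 4.83]. Sprr2a3, an envelope precursor, also rose, though 3 cells held 79.1% of its UMIs in papain. In Krt15 cells the same 5 genes had a median of 1.88 and in Nrcam cells 1.83.

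Adhesion genes were higher in papain as well. Of 15 compared genes of hemidesmosomes and basement membrane, 4 rose and 0 fell, with 14 of 15 above 0 and a median of 0.69. Among all compared genes 4.65% rose and 4.72% fell. Dst, which encodes the hemidesmosomal plakin BPAG1, was at 525 CPM in papain with lonidamine, 519.6 CPM in papain and 151 CPM in PBS, a log2 ratio of 1.78 [1.59 to 1.97]. Lama3, a laminin-332 chain, was at 53.5 CPM in papain with lonidamine, 60.2 CPM in papain and 20.4 CPM in PBS, a log2 ratio of 1.55 [1.04 to 2.13]. Of 16 desmosome and junction genes, 4 rose and 0 fell, with a median of 0.54. Krt15 cells had medians of 0.87 for the hemidesmosome list and 0.67 for the desmosome list. Nrcam cells had 0.49 and 0.76, so the rise was not particular to members. Cldn4, a sealing claudin, was at 594 CPM in papain with lonidamine, 862 CPM in papain and 226 CPM in PBS, a log2 ratio of 1.93 [1.77 to 2.09]. Dsp, desmoplakin, was at 466 CPM in papain with lonidamine, 438 CPM in papain and 197 CPM in PBS, and Cdh1 and Ocln, the adherens and tight junction genes, had log2 ratios of 1.31 and 1.54. Each of these genes was therefore lowest in PBS, and higher in both papain libraries.

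Secreted defence products rose, some of them steeply. Chil4, a chitinase-like protein of type 2 inflammation, was at 3808 CPM in papain with lonidamine, 4842 CPM in papain and 23.3 CPM in PBS. Its log2 ratio of papain to PBS was 7.68 [7.25 to 8.19], with 236 members carrying it in papain and 5 in PBS. Its level was uneven among the members. Per 10000 UMIs of a cell, the median was 2.97 in papain with lonidamine and 1.79 in papain. The highest 10% of cells had at least 113 in papain with lonidamine and 105 in papain. Mature olfactory neurons, which are not known to make Chil4, also carried UMIs of it. After thinning to 3000 UMIs per cell, the share of members with a UMI was 56.6% in papain with lonidamine, 52.2% in papain and 1.5% in PBS. Among the neurons it was 14.8% in papain with lonidamine, 27.4% in papain and 0.194% in PBS. The neurons' median depth was 7043 UMIs in papain with lonidamine, 7581 in papain and 8168 in PBS, and they held Chil4 at 97.9 CPM in papain with lonidamine, 1221 CPM in papain and 2.23 CPM in PBS. Its near-copy Chil3 had 23 UMIs in papain with lonidamine, 68 in papain and 0 in PBS, at least 12.6-fold higher in papain than a floor of 3 counts in PBS, and reads of the pair may be split uncertainly. Without the 3 members that held most of it, too few UMIs of Chil3 were left to compare papain with PBS.

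In the antimicrobial and acute-phase list 8 of 13 genes were compared, 5 rose and 0 fell, with a median of 1.43. Among all compared genes 4.65% rose and 4.72% fell. The same 8 genes had a median of 1.54 in Krt15 cells and 2.73 in Nrcam cells. Reg3g, a bactericidal lectin, was at 3505 CPM in papain with lonidamine, 4111 CPM in papain and 1518 CPM in PBS, a log2 ratio of 1.44 [1.38 to 1.5]. C3, the central complement protein, was at 464 CPM in papain with lonidamine, 281 CPM in papain and 78.0 CPM in PBS, a log2 ratio of 1.85 [1.59 to 2.12]. Pigr, the receptor that carries IgA across epithelium, was at 95.7 CPM in papain with lonidamine, 99.7 CPM in papain and 5.24 CPM in PBS, and 3 cells held 66.6% of its UMIs in papain. Bpifa1 rose, with a log2 ratio of 1.41 [1.37 to 1.46]. Neurons carried UMIs of both secreted products. After thinning, the share of members with Bpifa1 was 61.6% in papain with lonidamine, 71.7% in papain and 51.1% in PBS, and the share of neurons was 40.2% in papain with lonidamine, 48.2% in papain and 30.9% in PBS. For Reg3g the share of members was 77.2% in papain with lonidamine, 85.7% in papain and 72.9% in PBS, and the share of neurons was 26.6% in papain with lonidamine, 33.9% in papain and 6.28% in PBS. The neurons' shares were likewise higher in both papain libraries than in PBS, and the part of free RNA in the members' ratios was not tested. Ltf, lactoferrin, also rose, but members held less of it than the average kept cell. It was at 428 CPM in papain with lonidamine, 1119.8 CPM in papain and 83.2 CPM in PBS in members and at 2417 CPM in papain with lonidamine, 2636 CPM in papain and 459 CPM in PBS over all kept cells, and the part of free RNA in it was not tested.

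Of 10 compared genes of the alarmin and type 2 list, 6 rose and 1 fell, with a median of 1.22. Among all compared genes 4.65% rose and 4.72% fell. The same 10 genes had a median of 1.10 in Krt15 cells and 1.11 in Nrcam cells. Il33, the alarmin stored in epithelial nuclei, was at 51.3 CPM in papain with lonidamine, 53.7 CPM in papain and 19.8 CPM in PBS, a log2 ratio of 1.42 [0.90 to 2.02]. Cish, a feedback inhibitor induced by STAT5 and STAT6 signals, was at 76.4 CPM in papain with lonidamine, 79.9 CPM in papain and 18 CPM in PBS, a log2 ratio of 2.13 [1.60 to 2.74]. Alox15, a lipoxygenase induced by IL-4 and IL-13, was at 26.9 CPM in papain with lonidamine, 64.7 CPM in papain and 6.40 CPM in PBS, and Il4ra, the receptor chain for both cytokines, at 14.6 CPM in papain with lonidamine, 23.9 CPM in papain and 11.6 CPM in PBS with a log2 ratio of 1.01 [0.31 to 1.83]. The member of the list that fell was Socs3, the feedback inhibitor of STAT3, at 270.5 CPM in papain with lonidamine, 223 CPM in papain and 612 CPM in PBS, a log2 ratio of -1.46 [-1.6 to -1.32]. Tslp, another epithelial alarmin, had 9 UMIs in papain with lonidamine, 6 in papain and 3 in PBS and could not be compared.

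Cytokine genes and feedback genes of NF-kB, the transcription factor of inflammatory signalling, rose in part. Of 18 compared, 9 rose and 0 fell, where 4.65% of all compared genes rose and 4.72% fell, 17 had a ratio above 0, and the median was 1.01. Cxcl2, a neutrophil chemokine, was at 391 CPM in papain with lonidamine, 481 CPM in papain and 44.2 CPM in PBS, a log2 ratio of 3.43 [3.11 to 3.8]. Cxcl1, its neighbour and relative, was at 409.5 CPM in papain with lonidamine, 341 CPM in papain and 106 CPM in PBS, a log2 ratio of 1.68 [1.46 to 1.92]. Tnfaip3, which encodes the ubiquitin-editing brake A20, was at 418 CPM in papain with lonidamine, 338 CPM in papain and 48.3 CPM in PBS, a log2 ratio of 2.80 [2.48 to 3.15], and was seen in 224 members of papain and 35 of PBS. The cytokine gene Il6 was at 71.0 CPM in papain with lonidamine, 107 CPM in papain and 18.6 CPM in PBS and Csf3 at 71.7 CPM in papain with lonidamine, 106 CPM in papain and 26.2 CPM in PBS, with log2 ratios of 2.51 and 2.01. Nfkbia, the inhibitor IkB-alpha, was at 925 CPM in papain with lonidamine, 1016 CPM in papain and 648 CPM in PBS and did not pass 2-fold, with a log2 ratio of 0.65 [0.55 to 0.75]. The same 18 genes had a median of 0.60 in Krt15 cells and 0.52 in Nrcam cells of the same libraries.

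The proximal promoters of 3 genes of this group that rose in members and were held by many cells are shown, because they carry letters of the NF-kB pattern. From RefSeq promoters (GRCm38.p6, 250 bases before to 50 after a gene's start), 17 of the 22 listed genes were matched. The pattern of GGG, any 2 bases and TTTCC, searched on both strands, was found in 9 of the 17 (Il6, Cxcl1, Cxcl2, Cxcl3, Ccl20, Csf1, Nfkbia, Tnfaip3 and Nfkb2) and in 1.89% of all 27025 genes with a promoter window of that length. It was 1 of 10 patterns searched and was chosen for display after the matches were seen. A match is a description of letters only. Each line gives the 100 bases before the gene's start, 5′ to 3′ on the gene's strand, with matches on either strand in capitals, first bases at -89 and -71 for Cxcl1 (chr5:90891145-90891244, plus strand), -97 and -78 for Cxcl2 (chr5:90903799-90903898, plus strand) and -12 for Tnfaip3 (chr10:19015411-19015510, minus strand).
Cxcl1: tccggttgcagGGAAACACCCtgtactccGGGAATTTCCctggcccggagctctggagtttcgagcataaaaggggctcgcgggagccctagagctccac
Cxcl2: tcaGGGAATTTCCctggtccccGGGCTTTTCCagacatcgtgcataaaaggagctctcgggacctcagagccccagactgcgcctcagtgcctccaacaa
Tnfaip3: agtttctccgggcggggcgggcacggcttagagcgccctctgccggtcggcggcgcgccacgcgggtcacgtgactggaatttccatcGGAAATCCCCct

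Of the PTHrP, Wnt and LGR pathway beyond the rule genes, 11 of 25 genes could be compared, 1 rose and 0 fell, and the median was 0.18. Over all compared genes 4.65% rose and 4.72% fell, so these counts are near those shares. The gene that rose was Wnt7b, a Wnt ligand, at 37.5 CPM in papain with lonidamine, 39.8 CPM in papain and 14.0 CPM in PBS, a log2 ratio of 1.49 [0.87 to 2.21]. Wnt4, another ligand, was at 340.0 CPM in papain with lonidamine, 374 CPM in papain and 363 CPM in PBS, and Sfrp1, a secreted Wnt inhibitor, at 293 CPM in papain with lonidamine, 276 CPM in papain and 333 CPM in PBS. Lgr4, the relative of Lgr6, was at 60.8 CPM in papain with lonidamine, 39.5 CPM in papain and 32.0 CPM in PBS. Pth1r, the receptor of PTHrP, was nearly absent from the members, with 3 UMIs in papain with lonidamine, 7 in papain and 1 in PBS.

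Other signalling lists had a few genes past 2-fold, where 4.65% of all compared genes rose and 4.72% fell. Of 9 Notch genes 2 rose (Notch3 and the ligand Dll1) and 1 fell, the target Hey1, at 104 CPM in papain with lonidamine, 70.5 CPM in papain and 161 CPM in PBS, a log2 ratio of -1.19 [-1.45 to -0.93]. Of 16 TGF-beta and BMP genes 3 rose, Fst and Bmp2 among them, and 1 fell. Fst, follistatin, an extracellular inhibitor of activins and BMPs, was at 56.1 CPM in papain with lonidamine, 67.9 CPM in papain and 19.2 CPM in PBS. Id1, a direct target of BMP signalling, fell, at 205 CPM in papain with lonidamine, 202 CPM in papain and 542 CPM in PBS, a log2 ratio of -1.42 [-1.57 to -1.28]. Of 8 EGF-family genes 2 rose, the ligand Nrg1 with 1.75 and the feedback inhibitor Errfi1 with 1.25. Of 10 genes of p53 and apoptosis 3 rose (Fas, Pmaip1 and Sesn2), with Fas, the death receptor, at 54.2 CPM in papain with lonidamine, 41.4 CPM in papain and 11.6 CPM in PBS. Of 14 interferon-stimulated genes 3 rose (Ifi202b, Cxcl10 and Gbp2) and the median was 0.07. Ifi202b, a DNA-binding protein of the HIN-200 family, was at 310.1 CPM in papain with lonidamine, 325 CPM in papain and 26.8 CPM in PBS, a log2 ratio of 3.59 [3.18 to 4.06], on 171 members in papain and 23 in PBS.

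Genes of sterol synthesis fell in papain. Of 16 compared, 9 fell and 0 rose, where 4.72% of all compared genes fell and 4.65% rose. Of the 16, 2 were above 0, and the median log2 ratio was -1.16. Fdps, farnesyl diphosphate synthase, was at 29.5 CPM in papain with lonidamine, 24.3 CPM in papain and 119 CPM in PBS, a log2 ratio of -2.29 [-2.70 to -1.91]. Msmo1, a demethylating enzyme late in the pathway, was at 29.9 CPM in papain with lonidamine, 28.1 CPM in papain and 124 CPM in PBS, a log2 ratio of -2.13 [-2.52 to -1.77]. Idi1, Fdft1, Cyp51, Nsdhl, Sqle, Mvd and Insig1 also fell, with log2 ratios from -2.16 for Mvd to -1.09 for Sqle. In Krt15 cells 15 of the same 16 genes were at least 2-fold lower, with a median of -2.21, and in Nrcam cells 3 of 16 were, with a median of -0.63.

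Some glycolysis genes fell in papain members. Of 14 compared genes of glycolysis below hexokinase 5 fell and 1 rose, where 4.72% of all compared genes fell and 4.65% rose. The median was -0.79, beside -0.13 over all compared genes. Aldoa, an aldolase, was at 323 CPM in papain with lonidamine, 324 CPM in papain and 752 CPM in PBS, a log2 ratio of -1.21 [-1.33 to -1.09]. Ldhb, a lactate dehydrogenase subunit, was at 75.7 CPM in papain with lonidamine, 80.6 CPM in papain and 229 CPM in PBS, a log2 ratio of -1.5 [-1.74 to -1.27]. Pfkfb3, which makes the activator of phosphofructokinase, was the gene that rose, with 1.78 [0.82 to 3.04]. Of 22 nuclear genes of oxidative phosphorylation 0 rose, 0 fell and 0 were above 0, with a median of -0.66, and Atp5b, the ATP synthase beta subunit, was at 479 CPM in papain with lonidamine, 480.5 CPM in papain and 890.4 CPM in PBS. The 18 ribosomal protein genes, a technical list, had a median of -0.38 with 0 above 0. In Krt15 cells the 22 genes had a median of -0.50 and in Nrcam cells -0.63. The 14 glycolysis genes had -0.59 in Krt15 cells and -0.87 in Nrcam cells. The glycolysis list summed to 2478 CPM in papain and 4436 CPM in PBS in members. Over all kept cells it summed to 2981 CPM in papain and 5474 CPM in PBS. The 22 genes summed to 6517 CPM in papain and 9624 CPM in PBS in members. Over all kept cells they summed to 7573 CPM and 10318 CPM. Both sums were thus lower in papain over all kept cells too.

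Few redox genes changed. Of 18 genes of the NRF2 and glutathione list 2 rose and 1 fell, where 4.65% of all compared genes rose and 4.72% fell, and the median was -0.01. Hmox1, heme oxygenase, was at 160.2 CPM in papain with lonidamine, 247 CPM in papain and 55.9 CPM in PBS, a log2 ratio of 2.14 [1.84 to 2.47]. Aldh1a1, which makes retinoic acid, was at 454 CPM in papain with lonidamine, 480.5 CPM in papain and 22.7 CPM in PBS, a log2 ratio of 4.39 [3.95 to 4.90]. Nqo1, a quinone reductase, fell, at 34.2 CPM in papain with lonidamine, 33.3 CPM in papain and 164 CPM in PBS, a log2 ratio of -2.30 [-2.64 to -1.97]. Mature olfactory neurons hold much Nqo1, at 927 CPM in papain with lonidamine, 819.7 CPM in papain and 594 CPM in PBS. The part of free RNA in the members' Nqo1 was not tested. Ace, which encodes the angiotensin-converting enzyme, also fell, at 17.8 CPM in papain with lonidamine, 13.6 CPM in papain and 71.0 CPM in PBS with a log2 ratio of -2.37 [-2.93 to -1.87], as did Ppargc1a, a coactivator of mitochondrial genes, at 58.6 CPM in papain with lonidamine, 45.3 CPM in papain and 159 CPM in PBS with -1.81 [-2.11 to -1.51].

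**Figure D3:**
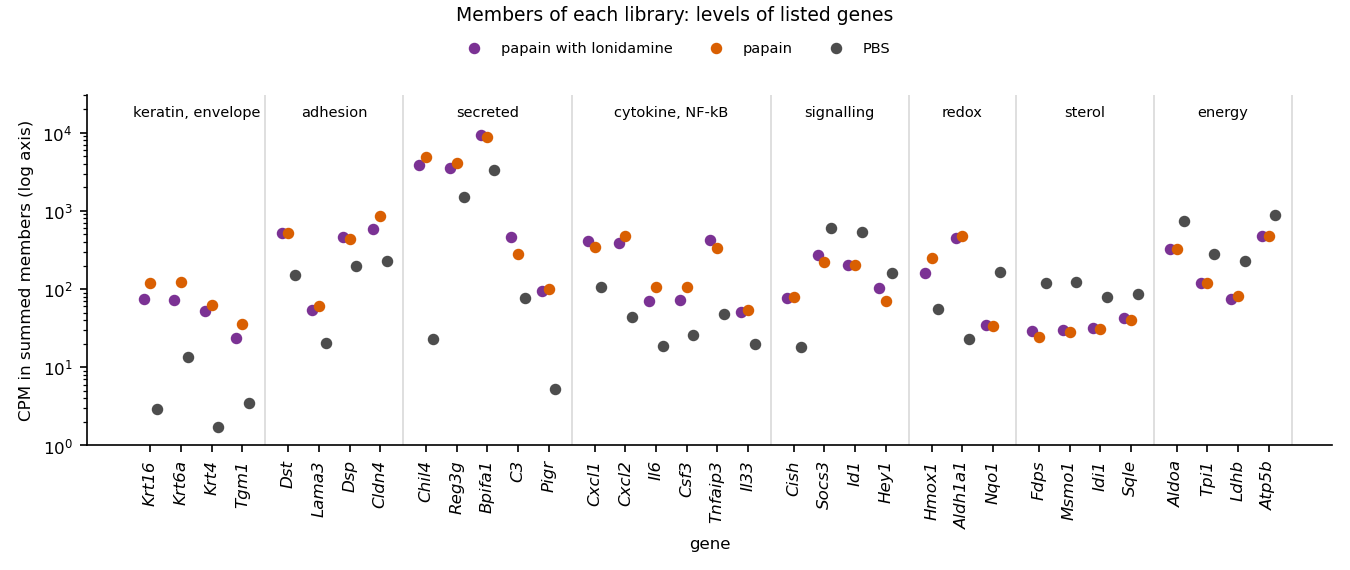
Levels of listed genes in the summed members of each library, in CPM on a log axis, 1 point per library, grouped by function. Chil4 lies at 3808 CPM in papain with lonidamine and 4842 CPM in papain against 23.3 CPM in PBS, and the sterol genes are lower in both papain libraries than in PBS.

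The largest ratios often came from few cells. Among the 12 genes named as highest in papain against PBS, 7 had at least 75% of their papain UMIs in 3 members. They included Ibsp, Bglap, Col1a1 and Col1a2 (genes of bone and fibroblast matrix), Crisp1, Gpx3 and BC051076. Foxi1 (an ionocyte gene) and the odorant receptor gene Olfr1140, the 2 lowest, likewise had at least 75% of their PBS UMIs in 3 or fewer members. Genes held widely were then chosen after their values were seen, as those with a UMI in at least 10% of members of the higher library and a difference of at least 2-fold both without the 3 cells that held most and in female members alone, with no UMI minimum for these ratios. By that rule 202 genes were higher and 180 lower in papain. Their leading higher genes included Plau (urokinase), at 13.5 CPM in papain with lonidamine, 23.3 CPM in papain and 0.582 CPM in PBS, Lgals7 (galectin-7 of stratified epithelium), at 38.2 CPM in papain with lonidamine, 37.9 CPM in papain and 2.91 CPM in PBS, and Timp1 (a metalloprotease inhibitor), at 26.2 CPM in papain with lonidamine, 39.5 CPM in papain and 3.49 CPM in PBS. Alox12e, an epidermal-type lipoxygenase named by the first rule, had 137 UMIs in papain with lonidamine, 157 in papain and 0 in PBS, at least 29.1-fold higher in papain than a floor of 3 counts in PBS.

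Lonidamine on top of papain was accompanied by far fewer differences. Of 9016 genes compared between members of papain with lonidamine and of papain, 141 (1.56%) differed at least 2-fold, 70 (0.776%) higher and 71 (0.787%) lower with lonidamine, and the median log2 ratio over all compared genes was 0.06. The lower count was 27 without the 3 cells that held most of each gene, and 36 without members carrying markers of another class. This comparison shares the papain library with the one against PBS. Of the members with a sex call, 96.6% were female in papain with lonidamine and 63.4% in papain, and over all members a difference of sex and one of treatment cannot be told apart.

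The median ratios of most lists lay close to 0. Of all 9016 compared genes 1.56% passed 2-fold, so a list with 0 genes past it stands near that share. Stress keratins had a median of -0.56 over 7 genes, with 2 higher and 1 lower, and 0.03 without the 3 cells that held most of each gene. NF-kB and cytokine genes had -0.06 over 19, and alarmin and type 2 genes -0.06 over 11. Interferon-stimulated genes had -0.39 over 13, with 1 lower past 2-fold, and MHC class II genes -0.56 over 4, also with 1 lower. Sterol synthesis had 0.09 over 15 genes, glycolysis below hexokinase -0.0012 over 15 and oxidative phosphorylation -0.01 over 22, with 0 genes past 2-fold in these 3 lists. The list of lonidamine targets (hexokinases, monocarboxylate and pyruvate carriers, complex II) had 10 compared genes, 0 past 2-fold, and a median of 0.12. In it Hk2, the inducible hexokinase, was at 187 CPM in papain with lonidamine, 205 CPM in papain and 143 CPM in PBS, a log2 ratio of -0.13 [-0.30 to 0.04] with lonidamine against papain. Sdhb, a complex II subunit, was at 75.7 CPM in papain with lonidamine, 74.1 CPM in papain and 162 CPM in PBS, with 0.03 [-0.25 to 0.31]. These are levels of RNA and carry no measure of the enzymes' activity.

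**Figure D4:**
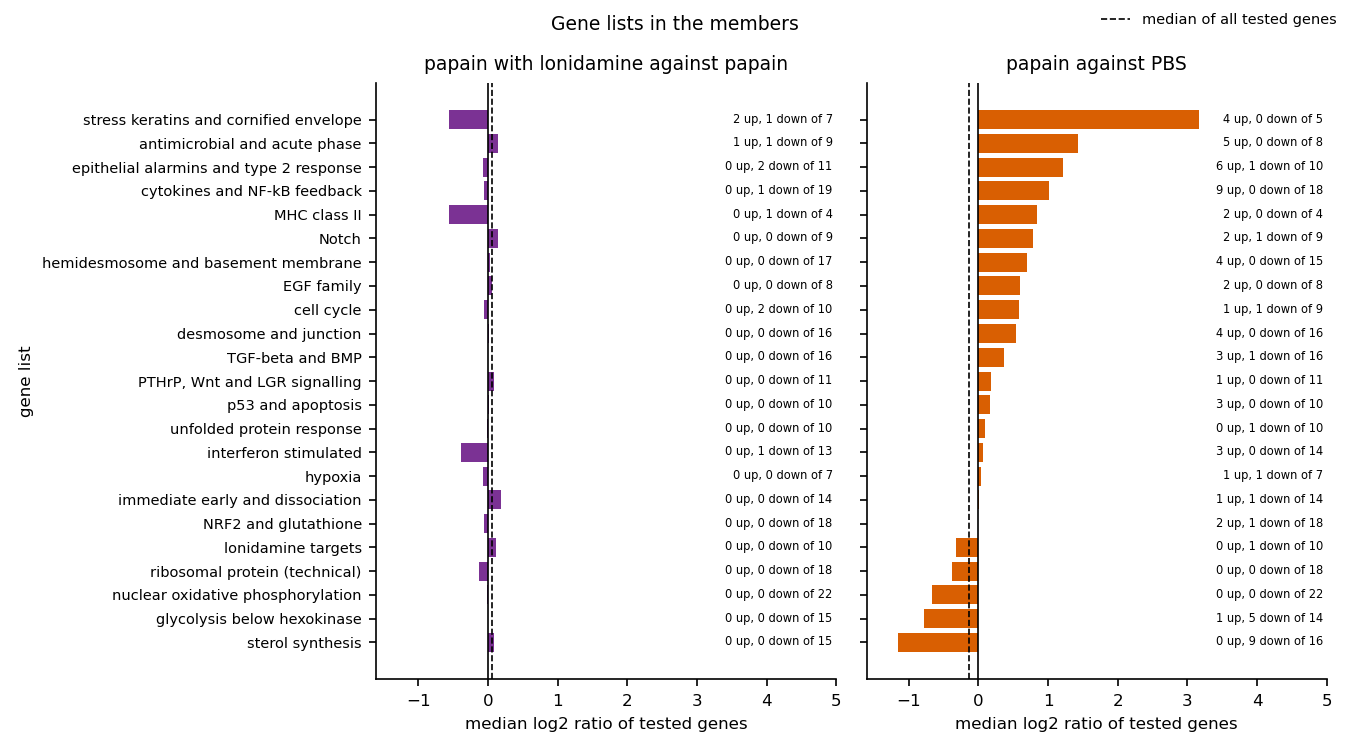
Median log2 ratio over the compared genes of each list in the members, for papain with lonidamine against papain (left) and papain against PBS (right), with the number of genes at least 2-fold higher (up) and lower (down) of those compared at the right of each panel and the median of all compared genes as a dashed line. The comparisons share the papain library; medians run from -1.16 for sterol synthesis to 3.17 for stress keratins against PBS.

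A few genes that many members carried did differ. Depp1, a FOXO target linked to autophagy, was at 325 CPM in papain with lonidamine, 110.0 CPM in papain and 145 CPM in PBS. Its log2 ratio of papain with lonidamine to papain was 1.56 [1.38 to 1.75], and it was seen in 120 members of papain with lonidamine, 76 of papain and 59 of PBS. Among female members the ratio was 1.76, among males, with 10 members, -4.27, and in Krt15 and Nrcam cells of the same libraries 1.44 and 1.25. Vav3, a guanine nucleotide exchange factor, was at 28.4 CPM in papain with lonidamine, 8.41 CPM in papain and 7.57 CPM in PBS, a log2 ratio of 1.74 [1.10 to 2.45], with 57 carrying members in papain with lonidamine, 23 in papain and 12 in PBS. Tnfrsf10b, a TRAIL death receptor, was at 20.0 CPM in papain with lonidamine, 7.12 CPM in papain and 2.91 CPM in PBS, a log2 ratio of 1.47 [0.75 to 2.28].

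Fewer widely held genes were lower with lonidamine. Msln, mesothelin, was at 19.7 CPM in papain with lonidamine, 134 CPM in papain and 27.4 CPM in PBS, a log2 ratio of -2.76 [-3.21 to -2.36], with 24 carrying members in papain with lonidamine, 43 in papain and 10 in PBS, and 3 cells holding 52.4% of its UMIs in papain. Upk3bl, a uroplakin-like gene, was at 12.7 CPM in papain with lonidamine, 33.0 CPM in papain and 38.4 CPM in PBS, a log2 ratio of -1.36 [-1.97 to -0.81]. Prss22, a tryptase-family protease of airway epithelium, was at 21.8 CPM in papain with lonidamine, 48.2 CPM in papain and 18.6 CPM in PBS, a log2 ratio of -1.14 [-1.6 to -0.70]. Isg15, an interferon-induced ubiquitin-like modifier, was at 8.01 CPM in papain with lonidamine, 28.1 CPM in papain and 27.9 CPM in PBS, a log2 ratio of -1.79 [-2.56 to -1.13], so papain and PBS were level and papain with lonidamine lay below both. Alox15 was lower with lonidamine, with -1.26 [-1.67 to -0.87], and that ratio was -0.37 without the 3 members of each library that held most of it.

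S100a8 and S100a9, the calprotectin genes of the stress list, were higher with lonidamine, with log2 ratios of 1.66 [0.92 to 2.49] and 1.80 [1.06 to 2.66]. S100a8 was at 20.7 CPM in papain with lonidamine, 6.47 CPM in papain and 2.91 CPM in PBS in members, at 1462 CPM in papain with lonidamine, 282 CPM in papain and 256 CPM in PBS over all kept cells and at 287 CPM in papain with lonidamine, 21.7 CPM in papain and 49.8 CPM in PBS in mature olfactory neurons. The gene was thus higher with lonidamine in neurons and over all kept cells too, and the part of free RNA in the members' values was not tested. Cxcl5, a neutrophil chemokine, was lower with lonidamine, with -1.79 [-2.45 to -1.21], on 10 carrying members in papain with lonidamine, 17 in papain and 2 in PBS. The cycle genes Cdk1 and Ube2c were lower, with -1.26 and -1.32, on 9 and 10 carrying members in papain with lonidamine and 14 and 7 in papain.

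Most genes with the largest ratios between papain with lonidamine and papain sat in few cells. Of the 12 highest, 8 had at least 75% of their UMIs in 3 members of papain with lonidamine, among them Klk1, Bpifb3, Muc5ac, Itln1 and Bpifb1, products of glands and goblet cells. Of the 12 lowest, 11 had at least 75% in 3 members of papain, among them Ibsp, Spp1, Bglap, Col1a1 and Col1a2. BC051076 and Obp2a changed sign without those 3 cells, with log2 ratios of -3.21 and -2.65 over all members against 1.27 and 2.40 without them. By the same rule as above for widely held genes, chosen after values were seen, 13 genes were higher and 6 lower with lonidamine.

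**Figure D5:**
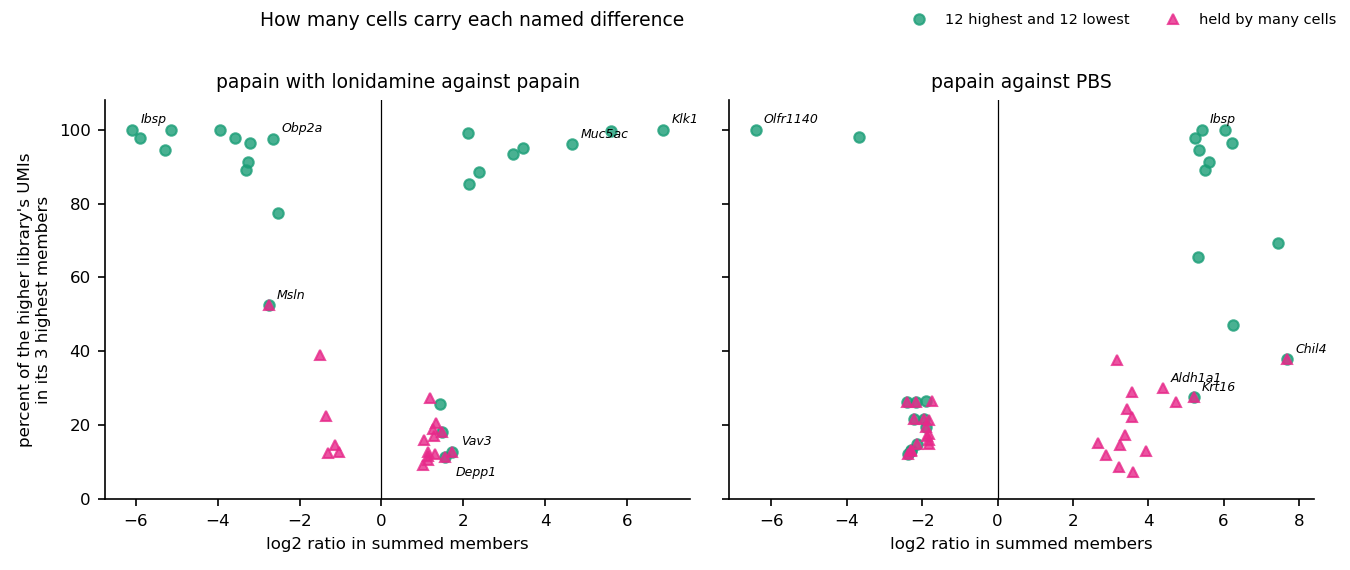
Percent of a named gene's UMIs that lie in the 3 members with most of it, in the library where it is higher, against its log2 ratio, for papain with lonidamine against papain (left) and papain against PBS (right). Circles are the 12 highest and 12 lowest genes and triangles the widely held ones; most of the outlying circles lie at or above 75%, while Depp1 lies at 11.4% and Vav3 at 12.8%.

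Set directly against PBS, members of papain with lonidamine differed about as widely as papain members did. Of 8391 genes compared, 850 (10.1%) differed at least 2-fold, 455 (5.42%) higher and 395 (4.71%) lower in papain with lonidamine, with a median log2 ratio of -0.06. The 3 comparisons share libraries, so their counts are set side by side only.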

How the data were processed

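The 3 libraries were made with a 10x Genomics kit for 3' ends of RNA from digested nasal mucosa, per the labels' protocols. The authors deposited counts, whole numbers of UMIs per gene and barcode. Cell Ranger is given as version 2.1.1 per the submitters' processing notes and as 7.1.0 per the file headers, with genome build GRCm39. Barcodes were filtered and assigned by the rule above, with python 3.11.15, numpy 2.4.6, scipy 1.17.1 and pandas 2.3.3. Scrublet (scanpy 1.11.5) marked doublets, which were kept except in 1 alternative. Member UMIs were summed per library and divided by the total. Intervals are conditional binomial for ratios and Clopper-Pearson for shares, and cover counting error only. The statistics were tested on simulated sums that held counting error only, the error that the intervals assume. That could not show how the intervals fare for genes held unevenly by the cells. Groups follow the treatment labels, and with 1 library per group no p-value was computed.

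Named genes were the 12 highest and 12 lowest past 2-fold, leaving out rule genes, predicted, mitochondrial, ribosomal, haemoglobin, immunoglobulin, T cell receptor and sex-linked marker genes, and genes whose CPM in members was under 0.5 of that over all kept cells. Listed genes could be named at any value. Members and lists were chosen with earlier results of these data known. Alternatives changed the gates, depth, doublets, scaling, UMI minimum and cells of one sex. Results for some listed genes are not reported here.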

Additional observations from a re-analysis of the deposited data

Results flagged for a closer look

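The log2 ratio of papain to PBS had opposite signs in female and male members for 2 genes. Gpx3, a secreted glutathione peroxidase, had 3.99 in female and -2.21 in male members. Ibsp, a bone matrix protein, had 5.44 in female and -2.21 in male members. Both rest on few cells, since Gpx3 was seen in 6 members of papain and 2 of PBS, and Ibsp in 2 of papain and 1 of PBS. In each sex both genes held fewer than 50 UMIs over papain and PBS, under the minimum for a comparison. At such sums the 0.5 added counts can weigh on a ratio, so the signs are not read as a difference between the sexes. The difference between the sexes was not tested.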

How the results depend on the processing

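No paired analysis was possible because each group had 1 library. With at least 6 Krt5 UMIs, members were 2.04% of kept cells in papain with lonidamine, 2.14% in papain and 0.967% in PBS, and 19.5% of placed cells in papain. Thinning to 3000 UMIs left out the kept cells with fewer. On that smaller base members were 2.56% (211 of 8243) in papain and 0.883% (69 of 7812) in PBS. For papain against PBS, a minimum of 200 UMIs left 187 genes higher and 77 lower, and a minimum of 1 UMI gave 2327 and 3144. Genes lower in papain numbered 258 with median-of-ratios scaling, 211 in female and 257 in male members. For papain with lonidamine against papain, male members gave 130 higher and 267 lower, a minimum of 200 UMIs 16 and 24, and a minimum of 1 UMI 2778 and 3132. Genes lower with lonidamine numbered 27 without the 3 highest cells per gene and 36 without cells carrying markers of another class. These last settings were chosen after seeing the data. For papain with lonidamine against PBS, a minimum of 200 UMIs gave 202 higher and 91 lower, a minimum of 1 UMI 2278 and 3292, and male members 141 higher. Against papain, Depp1 was -4.27 in male members, BC051076 was 1.42 in female members and 1.27 without the 3 highest cells, and Obp2a was 2.56 and 2.40 in those settings. Fewer genes or cells entered the UMI-minimum and single-sex settings, and the cause of the other moves was not tested. Of ratios of named genes, 459 were within the limits and 37 moved for papain against PBS, and 409 were within them, 32 moved, 19 fell under 2-fold and 5 reversed for papain with lonidamine against papain. Of list medians, 9 moved for papain against PBS and 4 for papain with lonidamine against papain, including stress keratins without the 3 highest cells. Many named genes had too few UMIs for a value in some settings.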
